A study of Mus musculus with 6 samples.

Results

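The late cornified envelope (Lce) and small proline-rich (Sprr) genes encode short structural proteins of the cornified envelope, and their levels were compared between taste cells taken from mice at 2 months and at 6 months of age. All rows of the deposited table whose gene symbol begins with Lce or Sprr followed by a digit were taken, which gave 34 of 23361 rows. They comprised 13 Lce1 genes, 6 Lce3 genes, Lce6a, 2 Sprr1 genes, 10 Sprr2 genes, Sprr3 and Sprr4. The family was chosen because its change between these same 2 ages was already known, so every value below is a description and carries no test.

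RNA came from isolated taste cells of the circumvallate and foliate papillae (CV/Fol) of C57BL/6 mice, and the labels name no treatment or mutant allele in either group. Per the study's methods, each of 3 libraries at 2 months held cells pooled from 4 mice, and each of 3 libraries at 6 months held cells pooled from 3 mice. The table gives 1 pooled value per gene and age in FPKM, a fragment count scaled by transcript length and sequencing depth. No value of a single library was used, so no SD, interval or p-value can be given, the depth is unknown, and no difference below could be set against the spread between pools.

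The cornified envelope is a sheet of cross-linked protein that replaces the plasma membrane of a keratinocyte at the end of its life. Transglutaminases join its precursors, among them involucrin, loricrin, the Sprr proteins, which act as flexible cross-bridges, and the Lce proteins, which are added late. On the tongue, heavily cornified epithelium covers the filiform papillae and surrounds the papillae that hold taste buds, whereas mature taste cells do not cornify.

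All 34 genes lie on chromosome 3 of GRCm38 between 92250647 and 93019061, inside the epidermal differentiation complex. Over these 768 kb the order runs from the Sprr2 genes through Sprr1b, Sprr3, Sprr1a and Sprr4 to Lce6a, the Lce1 genes and the Lce3 genes, with Lce1m last. Lce1m thus stands apart from the other Lce1 genes. Sprr2g and Sprr2j-ps are annotated as transcribed pseudogenes. Promoters of selected genes, some with large and some with small differences between the ages, are shown next. They can be compared within and between subfamilies. The sequences are those of RefSeq for GRCm38.p6, 5′ to 3′ on the strand of the gene, and each ends at the base before the annotated transcript start. In the Lce1 promoters, capitals mark the 6-base run AAAAGG.
Lce1b (chr3:92656927-92657046, minus strand): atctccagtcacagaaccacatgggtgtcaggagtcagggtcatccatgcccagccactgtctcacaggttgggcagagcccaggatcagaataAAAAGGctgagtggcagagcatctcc
Lce1g (chr3:92752339-92752458, minus strand): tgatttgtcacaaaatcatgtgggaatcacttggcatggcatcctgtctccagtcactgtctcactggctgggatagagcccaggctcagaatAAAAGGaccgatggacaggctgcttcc
Lce1l (chr3:92851287-92851406, minus strand): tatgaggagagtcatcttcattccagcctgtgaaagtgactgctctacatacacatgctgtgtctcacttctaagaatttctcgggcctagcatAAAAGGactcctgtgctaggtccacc

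In the Lce3 promoters, capitals mark the run ATAAAA.
Lce3a (chr3:92926231-92926350, minus strand): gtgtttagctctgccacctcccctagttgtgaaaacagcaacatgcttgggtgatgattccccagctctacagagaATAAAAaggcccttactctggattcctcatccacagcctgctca
Lce3b (chr3:92932859-92932978, plus strand): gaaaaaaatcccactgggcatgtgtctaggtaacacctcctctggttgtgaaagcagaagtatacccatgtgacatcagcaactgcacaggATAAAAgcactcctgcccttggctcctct
Lce3e (chr3:92966941-92967060, plus strand): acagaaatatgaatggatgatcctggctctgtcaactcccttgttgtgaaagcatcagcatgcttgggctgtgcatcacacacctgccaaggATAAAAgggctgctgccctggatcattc

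In the Sprr promoters, capitals mark the TATA box letters TATAAA and the AP-1 letters TGANTCA, the recognition site of the dimers formed by Fos and Jun proteins. Sprr2b and Sprr2f stand for the Sprr2 genes that were lower at 6 months and Sprr2k for the one that was higher.
Sprr2b (chr3:92316505-92316704, plus strand): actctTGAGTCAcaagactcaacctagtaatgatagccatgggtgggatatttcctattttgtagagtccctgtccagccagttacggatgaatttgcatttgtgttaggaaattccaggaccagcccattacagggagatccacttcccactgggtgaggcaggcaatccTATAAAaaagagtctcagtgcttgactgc
Sprr2f (chr3:92364987-92365186, plus strand): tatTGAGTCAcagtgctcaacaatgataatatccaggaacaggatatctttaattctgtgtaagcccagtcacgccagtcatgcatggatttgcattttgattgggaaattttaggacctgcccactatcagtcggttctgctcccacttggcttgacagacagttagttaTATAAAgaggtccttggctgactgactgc
Sprr2k (chr3:92432382-92432581, plus strand): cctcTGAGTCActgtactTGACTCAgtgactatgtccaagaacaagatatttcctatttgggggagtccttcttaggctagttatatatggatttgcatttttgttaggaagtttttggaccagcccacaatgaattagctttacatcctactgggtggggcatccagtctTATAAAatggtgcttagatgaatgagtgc

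Sprr1a and Sprr3 are shown as genes whose level differed little between the ages.
Sprr1a (chr3:92485882-92486031, minus strand): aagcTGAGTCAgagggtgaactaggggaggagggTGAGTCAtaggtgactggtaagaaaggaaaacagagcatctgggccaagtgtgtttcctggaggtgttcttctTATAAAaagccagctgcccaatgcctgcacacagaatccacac
Sprr3 (chr3:92458721-92458840, minus strand): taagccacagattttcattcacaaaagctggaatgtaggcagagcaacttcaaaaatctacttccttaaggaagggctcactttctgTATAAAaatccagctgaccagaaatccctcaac

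The Lce1 genes were well expressed at 2 months and close to 0 at 6 months. Of the 13 genes, 12 had 42.5 to 152 FPKM at 2 months and 0.633 to 3.64 FPKM at 6 months, so the lowest value at 2 months lay above the highest at 6 months. Lce1a1, the highest at both ages, had 152 FPKM at 2 months against 3.64 FPKM at 6 months. Lce1a2 went from 138 to 2.43 FPKM and Lce1b from 132 to 2.28 FPKM. Lce1b had the largest difference on the log2(FPKM + 1) scale, -5.34, and its 2 month FPKM was 57.9 times its 6 month FPKM. In the ratio of FPKM values the order changed, and Lce1g led with 60.0 against 0.633 FPKM, a ratio of 94.9. The smallest ratio among the 12 was 41.9, shared by Lce1a1 and Lce1h, the latter with 79.8 and 1.90 FPKM. Lce1d, Lce1f, Lce1i and Lce1c had 111, 109.8, 87.4 and 87.3 FPKM at 2 months and had ratios within the same range. Lce1e, Lce1g, Lce1k and Lce1l were under 1 FPKM at 6 months. Lce1m was at 0.821 FPKM at 2 months against 0.103 FPKM at 6 months, under the filter of a mean of 1 FPKM that was applied to all genes.

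**Figure D1:**
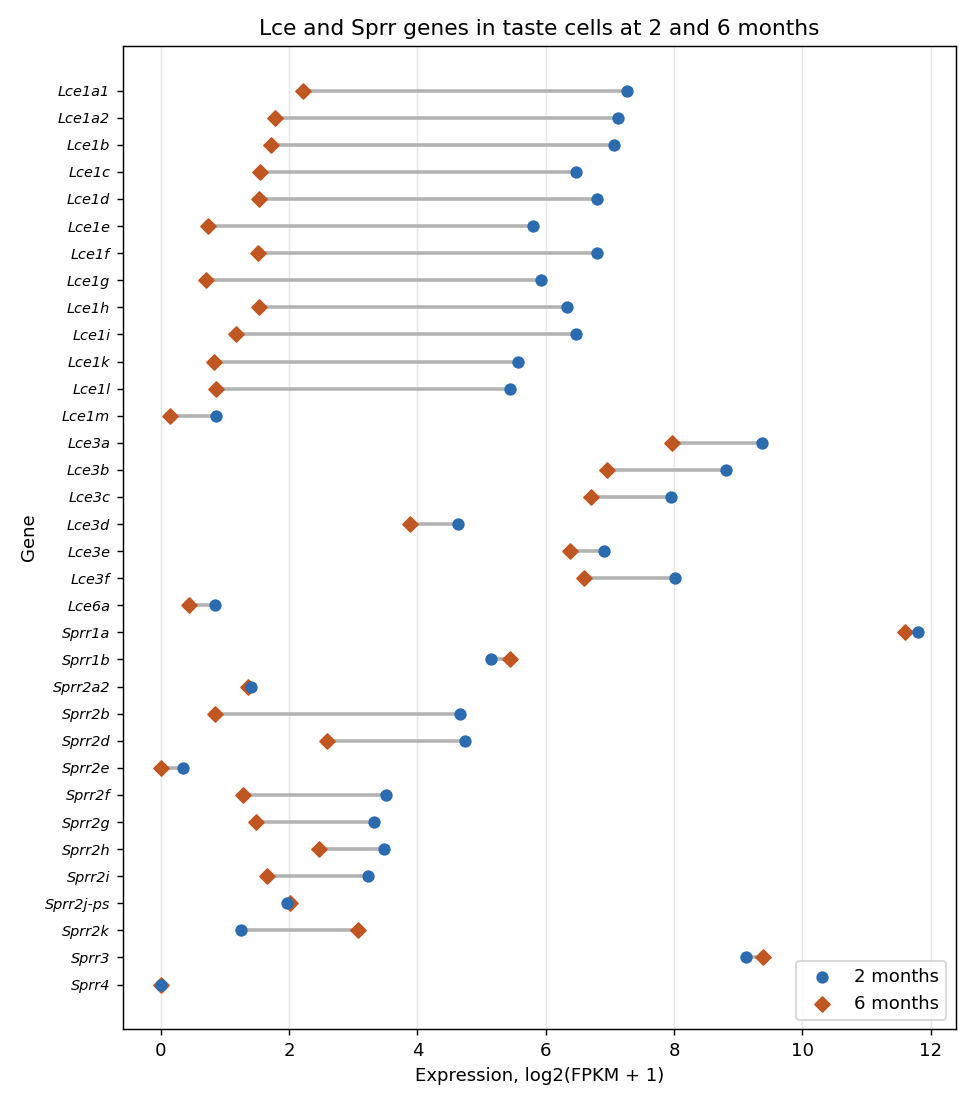
Expression of the 34 genes in log2(FPKM + 1), with 1 value per age (circles, 2 months; diamonds, 6 months) and no error because single libraries were not used. The 12 Lce1 genes from Lce1a1 to Lce1l are joined by the longest lines, whereas Sprr1a, Sprr1b, Sprr3, Sprr2a2 and Sprr2j-ps have nearly overlapping symbols and Sprr2k is reversed.

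The level of the Lce1 genes also tended to be lower further along the chromosome, though not from each gene to the next. At 2 months, for example, Lce1e had 54.9 FPKM between Lce1d with 111 and Lce1f with 109.8 FPKM. Over the 12 genes from Lce1a1 to Lce1l, Spearman's rho between order along the chromosome and FPKM was -0.83 at 2 months and -0.74 at 6 months, and that between the FPKM values of the 2 ages was 0.83. These are correlations across genes that share libraries and, in part, sequence, and they are given without a test. They were not among the planned results. At 6 months the 12 values ran only from 0.633 to 3.64 FPKM at unknown depth, so their order at that age is uncertain. Thus Lce1l, the last of these 12 before the Lce3 genes, had the lowest value at 2 months (42.5 FPKM) and the genes next to Lce6a the highest.

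The Lce3 genes differed less between the ages than the 12 Lce1 genes, and at 6 months each of them was above every Lce1 gene. At 2 months the levels of the subfamilies overlapped, with 23.7 to 662 FPKM for Lce3. The human counterparts of this subfamily are best known for their induction in psoriatic and injured skin. Lce3a had 662 FPKM at 2 months against 250.5 FPKM at 6 months, Lce3b 447 and 124 FPKM, and Lce3f 258 and 95.8 FPKM. The log2 differences of these genes were -1.40, -1.85 and -1.42, and that of Lce3c, which went from 248 to 104 FPKM, was -1.25. Lce3d and Lce3e did not reach a 2-fold difference. Lce3e was at 119 FPKM at 2 months against 82.2 FPKM at 6 months, a difference of -0.53, and Lce3d was at 23.7 and 13.7 FPKM, a difference of -0.75. All 6 genes had the lower value at 6 months, when they ranged from 13.7 to 250.5 FPKM. Lce6a, the one member of its subfamily, was barely detected, with 0.790 FPKM at 2 months against 0.364 FPKM at 6 months.

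The Sprr2 genes were weakly expressed and differed from each other in direction. These genes respond to stress and inflammation in many epithelia. Sprr2d had 25.8 FPKM at 2 months against 5.03 FPKM at 6 months, and Sprr2b had 24.4 and 0.790 FPKM. Sprr2b thereby had the largest log2 difference of the family outside the Lce1 genes, -3.83, with a ratio of 30.9 between the ages. Sprr2f went from 10.4 to 1.42 FPKM, Sprr2g from 8.97 to 1.80 FPKM, Sprr2i from 8.35 to 2.16 FPKM and Sprr2h from 10.2 to 4.55 FPKM. The differences of these 4 genes ran from -2.24 for Sprr2f to -1.01 for Sprr2h, which only just exceeded 2-fold.

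Sprr2k went the other way, from 1.37 to 7.42 FPKM between 2 and 6 months. Its 6 month value was 5.41 times its 2 month value, and its log2 difference was 1.83. Sprr2k was the sole member that was at least 2-fold higher at 6 months, while 0.561% of the 12652 genes that passed the filter were that much higher. Of those 71 genes, 31 are listed at 0 at 2 months, and without genes listed at 0 at either age, left out after the data were seen, the share was 0.318%. Both remaining Sprr2 genes above the filter were level, Sprr2a2 at 1.64 and 1.56 FPKM and Sprr2j-ps at 2.90 and 3.03 FPKM. Sprr2e was at 0.266 FPKM at 2 months and is listed at 0 at 6 months, so no ratio is given.

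Sprr1a was by far the most abundant member at either age and differed little between them. It encodes a cross-bridging protein of oral and stressed epidermal keratinocytes. Its value was 3554 FPKM at 2 months against 3105 FPKM at 6 months, a log2 difference of -0.19, and it ranked 19th and 23rd of all genes by level. Sprr1b was at 34.6 and 42.7 FPKM, a difference of 0.30. Sprr3, which is typical of the lining of mouth and oesophagus, was at 558 FPKM at 2 months against 667 FPKM at 6 months, a difference of 0.26. Thus Sprr1b and Sprr3 had the higher value at 6 months. Sprr4 is listed at 0 at both ages.

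Counted over the family, 29 of the 34 genes had a lower value at 6 months, 4 had a higher value, namely Sprr1b, Sprr2j-ps, Sprr2k and Sprr3, and Sprr4 was listed at 0 at both ages. Of the 18878 genes above 0 at one age or both, 52.4% had the lower value at 6 months. The filter, a mean FPKM of 1 or more over both ages, kept 30 genes. Lce1m, Lce6a, Sprr2e and Sprr4 fell below it. Of the 30 genes, 22 were at least 2-fold lower at 6 months on the log2(FPKM + 1) scale, 12 of them Lce1, 4 Lce3 and 6 Sprr2 genes. Over all 12652 genes that passed the filter, 1.04% were that much lower, a background that stands beside the count as a description because the family was chosen on this contrast. Of the 131 genes behind this share, 48 are listed at 0 at 6 months, which can be a failed estimate. With such genes left out, a treatment chosen after the data were seen, the share was 0.66%, and the 22 genes were among 83. Among the 22, Lce1e, Lce1g, Lce1k, Lce1l and Sprr2b passed the filter through their 2 month value alone. With 1 FPKM required at both ages, also chosen after the data were seen, these 5 dropped out and 17 remained, beside 0.579% of genes. At least a 4-fold difference was seen for 15 genes, the 12 Lce1 genes with Sprr2b, Sprr2d and Sprr2f, beside 0.593% of all genes, and a 1.5-fold difference for 23, beside 1.72%. The count stayed at 22 without a filter, at a mean of 5 FPKM and with a pseudocount of 0.1, where the background was 0.578%, 1.17% and 1.19%. With the upper quartiles of both ages made equal it was 21, beside 1.02% of genes.

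The median log2 difference was -5.14 over the 12 Lce1 genes, -1.32 over the 6 Lce3 genes and -1.57 over the 9 Sprr2 genes that passed the filter, against -0.01 over all genes, where the quartiles were -0.10 and 0.08. Ranked by their fall among the 12573 genes above 0 at both ages, the Lce1 genes held the first 12 places, and Sprr2b was 14th, Sprr2f 20th and Sprr2d 24th. These places hold for log2(FPKM + 1). With a pseudocount of 0.1 or by the ratio of FPKM values, scales compared after the data were seen, 2310050C09Rik stood 8th or 3rd, and 11 of the first 12 places were held by Lce1 genes, with Lce1h 13th. Of the 50 largest falls, 19 were of this family. In the plot of all genes, the Lce1 genes lie in a group of their own far below the line of equal values.

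**Figure D2:**
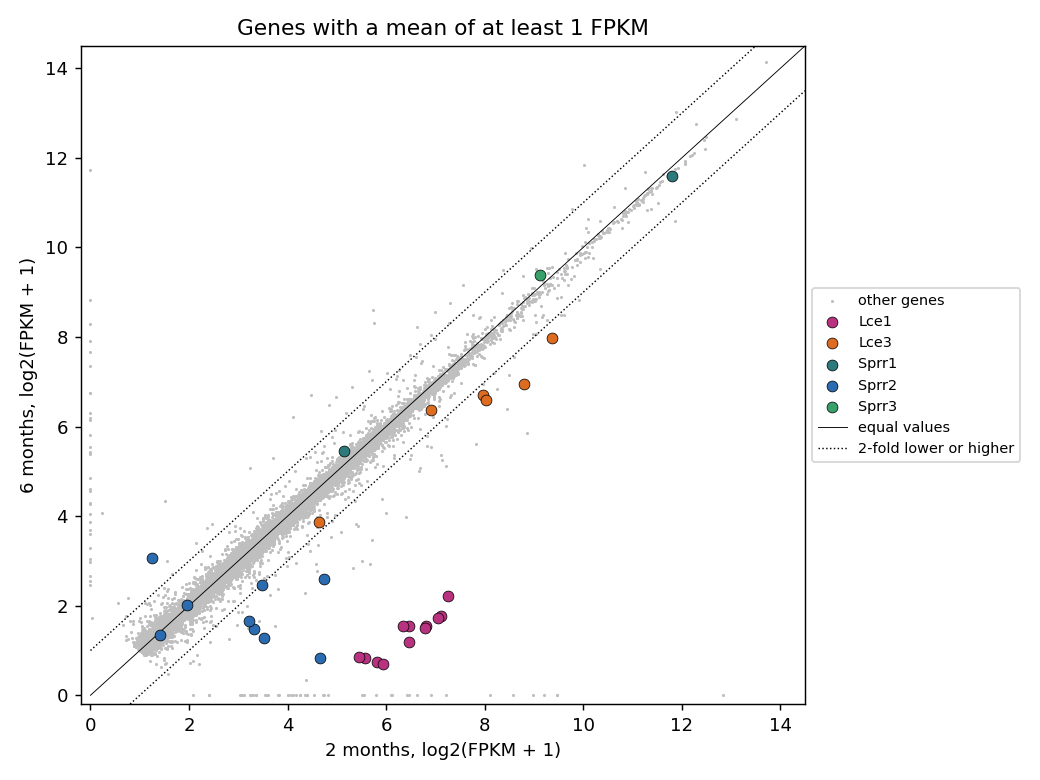
Level at 6 months against level at 2 months, both in log2(FPKM + 1), for the 12652 genes that passed the filter (grey) and the 30 Lce and Sprr genes among them (coloured by subfamily). The solid line marks equal values and the dotted lines a 2-fold difference. The Lce1 genes differ from the solid line by -5.34 to -4.58, the Sprr1 and Sprr3 genes lie close to it, and the points along either axis are genes listed at 0 at one age.

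Because reads can be divided between similar copies, the levels were also summed over each subfamily. Summed FPKM of the Lce1 genes went from 1102 at 2 months to 20.2 at 6 months, a ratio of 54.6. That of the Lce3 genes went from 1758 to 669.6, a ratio of 2.62, and that of the Sprr2 genes from 94.3 to 27.8, a ratio of 3.40. The Sprr1 genes went from 3588 to 3147. The whole family held 1.02% of the summed FPKM of the table at 2 months and 0.68% at 6 months. Its make-up also shifted, since the Lce1 genes held 15.5% of the family's FPKM at 2 months and 0.445% at 6 months, whereas Sprr1a alone held 50.04% and 68.5%. Without Sprr1a, the family's summed FPKM at 2 months was 2.49 times that at 6 months.

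**Figure D3:**
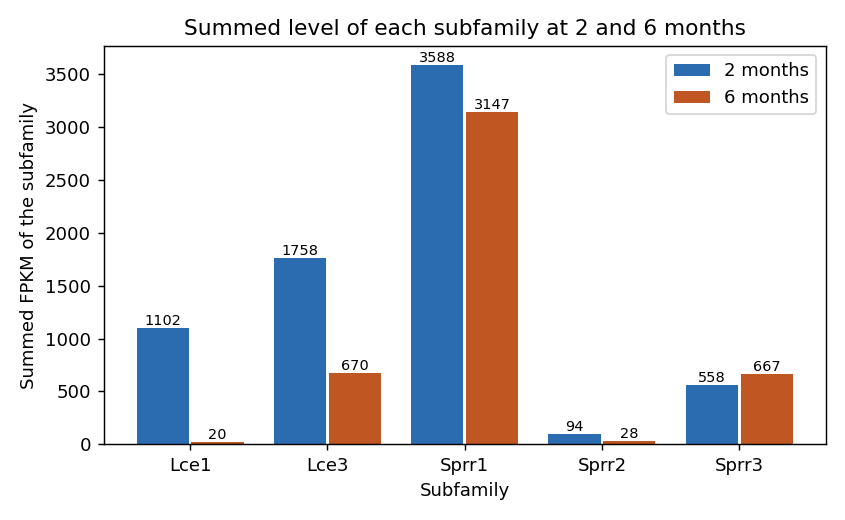
Summed FPKM of the Lce1, Lce3, Sprr1, Sprr2 and Sprr3 genes at 2 months (blue bars) and 6 months (orange bars), with the sum above each bar and no error because there is 1 value per age. The Lce1 bar almost vanishes at 6 months, the Lce3 and Sprr2 bars shrink, and the Sprr1 and Sprr3 bars change little.

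How far the copies can be told apart was measured on GENCODE transcripts of GRCm38, as the share of a transcript's 50-base windows that occur without mismatch in another annotated Lce or Sprr transcript. Besides the 34 genes, the annotation holds 4 more, Lce1j, Sprr2a1, Sprr2a3 and Sprr2c-ps, whose levels were not analysed here. The read length is not given in the sources used here, and 50 bases were taken as an example. Among the 12 Lce1 genes from Lce1a1 to Lce1l this share was 9.12% to 25.4%, so most windows of each had no exact match in another. Windows with any mismatch were not counted as shared, and Lce1g and Lce1i were 90.3% identical. How reads were divided between these copies was not tested. It was 12.1% to 49.3% among the Lce3 genes. Lce3c and Lce3d were 95.3% identical over their aligned bases and internal gaps, and their separate values of -1.25 and -0.75 are uncertain to that extent. Other Lce3 values are uncertain too. Lce3f and Lce3e shared 48.0% and 43.7% of their windows, and Lce3b was 92.1% identical to Lce3c. Sprr2a2 shared 96.5% of its windows, but only 1.70% with others of the 34 genes. Its transcript was 99.9% identical to that of Sprr2a1 and 98.4% identical to that of Sprr2a3 over the aligned bases and internal gaps, so its value cannot be assigned to one gene. Sprr2b, the most similar of the analysed genes with 87.5% identity, shared 13.7% of its own windows and had -3.83 against -0.05 for Sprr2a2. Sprr2k shared none of its 588 windows, and its most similar member, Sprr2e, was 67.3% identical. Nor did Sprr1a, Sprr1b, Sprr3, Sprr2g or Sprr2h share any window.

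Along the chromosome, the size of the difference went largely by subfamily. From Sprr2b to Sprr2i the 7 Sprr2 genes all had lower values at 6 months. The next 5 genes, Sprr2j-ps, Sprr2k, Sprr1b, Sprr3 and Sprr1a, had differences of -0.19 to 1.83. After Sprr4, Lce6a and the genes between them, the 12 Lce1 genes from Lce1a1 to Lce1l followed with -5.34 to -4.58, and then the Lce3 genes with -1.85 to -0.53. Of the 39 listed genes in the interval, 5 belong to neither family. Kprp, a keratinocyte proline-rich protein gene that lies between Lce1k and Lce1l, went from 50.2 to 6.60 FPKM. The gene 2310050C09Rik, between Lce1l and Lce3a, went from 19.9 to 0.269 FPKM, a log2 difference of -4.04. Crct1, between Lce3f and Lce1m, had a difference of -0.70 and Ivl, which encodes involucrin and lies between Sprr4 and Lce6a, one of -0.59. Smcp, a gene of sperm mitochondria beside Ivl, was under 1 FPKM at both ages. Kprp, 2310050C09Rik, Crct1 and Smcp were named for their position after their values had been seen.

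**Figure D4:**
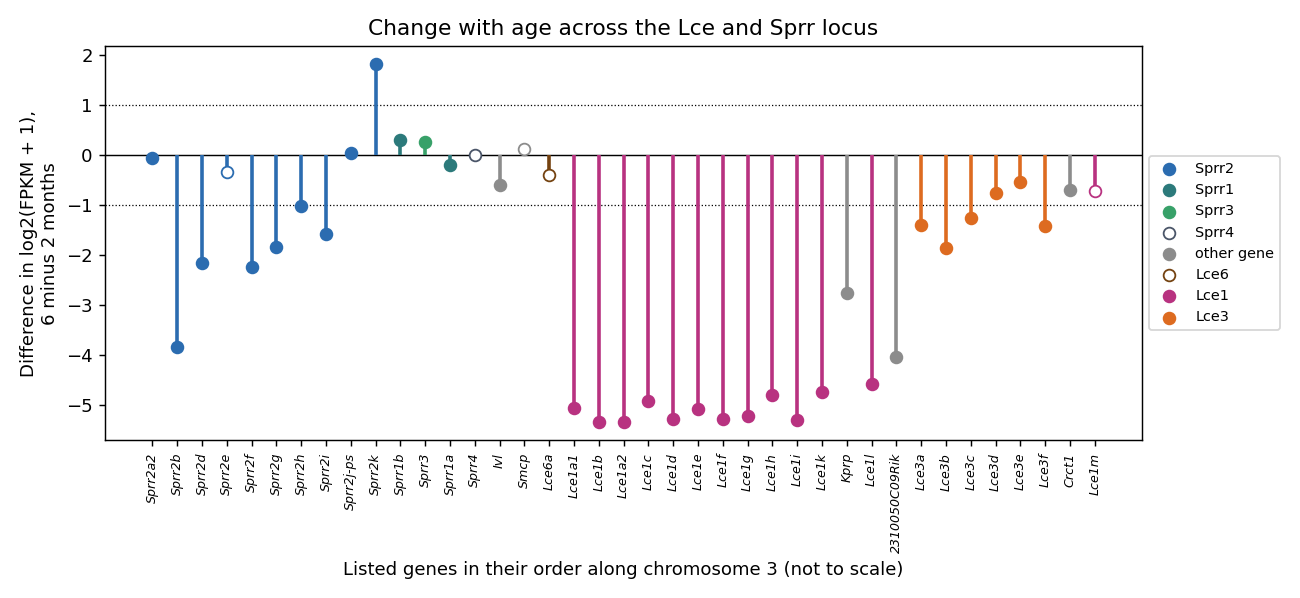
Difference in log2(FPKM + 1), 6 minus 2 months, of the 39 listed genes from Sprr2a2 to Lce1m in their order on chromosome 3, with equal spacing. Colours mark the subfamilies, grey marks the 5 other genes, open symbols mark genes with a mean under 1 FPKM and dotted lines mark a 2-fold difference. The Lce1 genes from Lce1a1 to Lce1l form one block near -5, next to the shallower Lce3 block, and Sprr2k is the one gene above the upper dotted line.

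Promoter sequences were found for 31 of the 34 genes, with Lce1f, Sprr2g and Sprr2j-ps missing from the table. The start used is that of the promoter table, which for Sprr1b lies 38 bases inside the RefSeq gene and for the other 30 at its first base. In the 250 bases before the start, the AP-1 letters TGANTCA, which read alike on both strands, were found in 7 of 8 Sprr2 promoters, both Sprr1 promoters and none of the 12 Lce1 and 6 Lce3 promoters. Of all 32851 promoters of the table, 6.75% hold these letters in the same window. In the Sprr2 genes the match began between base -198 and base -193 in all 7, and Sprr2k had a further match beginning at base -182. The matches occur in Sprr2 genes that were lower at 6 months, in Sprr2k, which was higher, and in Sprr1a, which was nearly level. The Lce1 genes, with the largest falls, had no such letters in this window. A link between these letters and the differences with age was not tested. A match is a description of the sequence and not a site of binding, and a missing match concerns these letters in this window only. The promoter listed for Sprr2a2 held neither the AP-1 nor the TATA box letters.

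The TATA box letters TATAAA, on the strand of the gene and beginning 40 to 20 bases before the start, were found in the same 7 Sprr2 promoters, in Sprr1b and Sprr3 and in 2 of 12 Lce1 promoters, against 1.99% of all promoters. In Sprr1a they began at base -43. At that place the Lce1 promoters shared the run AAAAGG, which began at base -28, -27 or -26 in 12 of 12, against 0.487% of all promoters. The Lce3 promoters shared ATAAAA, which began at base -30 to -28 in 5 of 6, against 0.834% of all promoters, and at base -44 in Lce3a. Both runs were the longest shared by all promoters of their subfamily and were chosen from the sequences themselves. They overlap in letters. Among the promoters printed above, Lce1b, Lce1g and Lce1l also hold ATAAAA there, and Lce3a and Lce3e also hold AAAAGG. Neither run was counted in the other subfamily, so no difference between Lce1 and Lce3 can be read from them. The KLF-type letters CACCC were found on either strand in 11 of the 31 promoters, against 52.0% of all promoters, and the ETS core letters GGAAG in 20 of 31, against 64.1%.

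**Figure D5:**
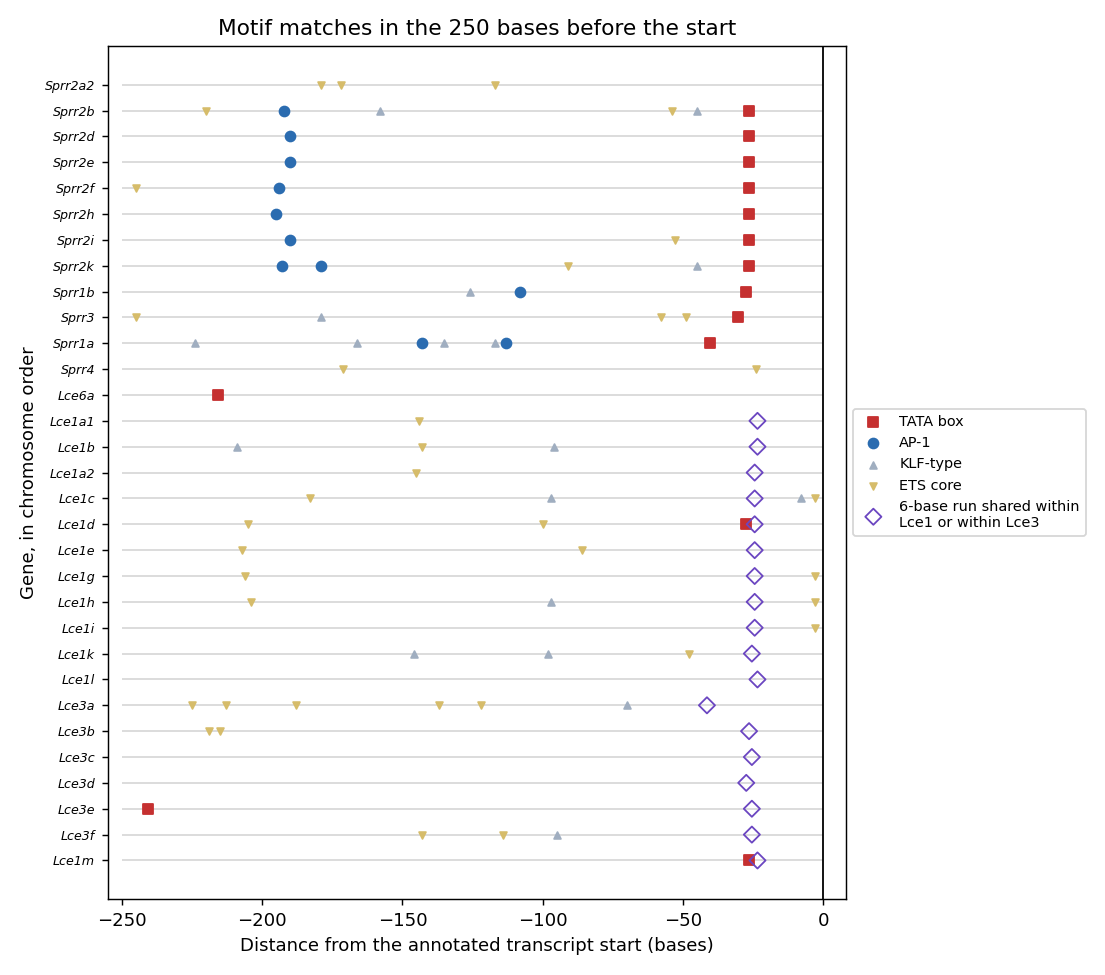
Matches to the TATA box, AP-1, KLF-type and ETS core letters on either strand in the 250 bases before the annotated start of 31 Lce and Sprr genes, in chromosome order, with the shared run of the Lce1 and Lce3 promoters as open diamonds. The horizontal axis is the distance from the start in bases. AP-1 matches line up near -190 in the Sprr2 genes and are absent from the Lce rows, and the TATA box or the shared run lines up near -25 in most rows.

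Genes of other cornified envelope proteins mostly had lower values at 6 months too, with smaller differences than the 12 Lce1 genes. Of the 17 genes chosen for this list, Flg has no value, and 13 passed the filter. Of these, 11 had the lower value at 6 months, beside 53.7% of all genes that passed. At 6 months 4 were at least 2-fold lower, beside 0.66% of the genes that passed and were above 0 at both ages. None was 2-fold higher, and the median difference was -0.70. Rptn, with a ratio of 2.01 and a difference of -0.9999, fell just short of the count. The 4 genes, named after their values had been seen, were Kprp (-2.75), Crnn (-2.49), Tchh (-1.28) and Hrnr (-1.13). Lor, which encodes loricrin, went from 1292 to 733 FPKM, a difference of -0.82. Krtdap, the highest of the list, was at 4894 and 4404 FPKM, and Ppl, which encodes periplakin, had the largest rise, 0.27. The list of 3 cross-linking enzymes moved little, as Tgm1, Tgm3 and Tgm5 had differences of -0.03, 0.05 and -0.07. Among 22 transcription factors of keratinocyte differentiation, 20 passed, with a list median of -0.07. Of these, 3 were at least 2-fold lower, beside 0.66% of the genes that passed and were above 0 at both ages. All 3 are AP-1 genes, namely Fos, Fosb and Jun. Fos went from 139.7 to 37.5 FPKM, and Fosb and Jun, named after their values had been seen, had differences of -1.44 and -1.15. Junb, Jund and Fosl2, the other Fos and Jun family genes of the list that passed, had differences of -0.54, -0.07 and 0.02. They too were named after their values had been seen. Klf4, which is needed for the epidermal barrier and was the highest of the list at 2 months, was at 249 and 214 FPKM. Maf had the largest rise, 0.37.

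Markers of the cells that such a preparation may hold were read beside these values. Because the RNA came from pooled cells in bulk, fewer cells of a type and less RNA per cell cannot be told apart. All 9 taste cell markers were above 1 FPKM at both ages, with a summed level of 282 FPKM at 2 months against 275 FPKM at 6 months, so RNA of the labelled cells was present. RNA of the basal keratin genes Krt5, Krt14 and Krt15 was abundant too, with sums of 4378 and 4343 FPKM. The paper places expression of its Krt14-driven Cre mainly in the lingual epithelium and in regenerating taste cells. It counts differentiating taste cells among the cells that express Krt14. How much of this RNA came from keratinocytes outside the taste buds was therefore not tested. The keratins of cornifying epithelium, Krt1, Krt10 and Krt2, summed to 190.5 and 97.7 FPKM, and Krt10 alone had a difference of -1.08. Those of filiform papillae, Krt84 and Krt36, summed to 57.5 and 57.9 FPKM. Krt4, Krt13 and Krt6a are listed at 0 at one or both ages, although keratin 4 and keratin 13 are main keratins of the oral lining, and give no usable value. The other 3 keratins of activated epithelium had a median difference of -0.24. Taste bud keratins summed to 807 and 655 FPKM, and fibroblast genes to 42.4 and 27.5 FPKM. Nearly all of the fibroblast sum came from Dcn, which had a difference of -0.60 and alone of the 4 genes passed the filter. The other genes of that list were under 1 FPKM at both ages, so the sum describes Dcn and not fibroblast RNA in general. Skeletal muscle genes summed to 7.11 and 16.4 FPKM, with 1 of 4 at least 2-fold higher on the log2(FPKM + 1) scale. Of all genes that passed and were above 0 at both ages, 0.318% were that much higher. Without the pseudocount all 4 were more than 2-fold higher, as their 2 month FPKM was 0.384 to 0.484 of that at 6 months. The share of all genes on that scale was not counted. Lingual gland genes summed to 400.0 and 137 FPKM. Of the 3 that passed the filter, 2 were at least 2-fold lower, Lipf at -2.43 and Dmbt1 at -1.41. Of all genes that passed and were above 0 at both ages, 0.66% were that much lower. Ptprc of leukocytes was at 1.54 and 1.65 FPKM. Some of these lists differed with age together with the Lce and Sprr genes, and their part in the differences was not tested.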

How the data were processed

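RNA-sequencing of 3 libraries of CV/Fol taste cells at 2 months and 3 at 6 months was used. Ages follow the sample labels, since the series text also names 3 months for the younger group. The authors mapped reads to GRCm38/mm10 with TopHat2 2.0.7 and the RefSeq annotation, estimated transcript levels with Cufflinks 2.1.1 and compared the ages with Cuffdiff, whose library normalization is not given in the sources used here. They deposited 1 FPKM value per gene and age. The unadjusted p-value per gene that the authors deposited is a result of their own comparison and was not used. Columns were assigned to the ages by the letters B and S, which the sample titles share.

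Differences were computed as the 6 month minus the 2 month log2(FPKM + 1), which understates changes of weakly expressed genes. The filter kept genes with a mean FPKM of 1 or more, and a 2-fold difference on that scale was counted. With 1 value per age, no test was made. Protein features were not computed. Promoters and gene positions came from RefSeq (GRCm38.p6) and transcripts from GENCODE M21 (GRCm38), aligned pairwise with free end gaps. Counting and scaling were tested on simulated data. The members, gene lists and motifs were chosen with earlier results of these data known. Named genes were all members, and within each list the gene highest at 2 months and the largest change in each direction, with Ivl, Lor, Klf4, Fos and Krt10. Alternatives were a pseudocount of 0.1, no filter, a mean of 5 FPKM, 1.5-fold and 4-fold thresholds, equal upper quartiles and subfamily sums. Python 3.11.15, numpy 2.4.6, pandas 2.3.3, matplotlib 3.10.9 and Biopython 1.88 were used.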

Additional observations from a re-analysis of the deposited data

How the results depend on the processing

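No paired analysis was possible because only 1 value per age, not 1 per library, was at hand. Likewise, fits without each replicate in turn were not run, and the depth behind a value is unknown. The count of 22 genes at least 2-fold lower was 21 with equal upper quartiles, which takes Sprr2h below 2-fold, and 22 with a pseudocount of 0.1, for genes above 0 at both ages, at a mean of 5 FPKM and unfiltered. It was 23 at 1.5-fold, 15 at 4-fold and 17 with at least 1 FPKM at both ages. The pseudocount of 0.1 moved the median difference of the Lce1, Lce3 and Sprr2 genes to -5.78, -1.33 and -1.90, Sprr2k to 2.35 and Sprr1b to 0.30. Equal upper quartiles gave medians of -5.14, -1.30 and -1.55, and -0.18 for Sprr1a, 0.32 for Sprr1b, 1.84 for Sprr2k and 0.28 for Sprr3. Without a filter the Lce1 and Sprr2 medians were -5.07 and -1.29, and at a mean of 5 FPKM the Sprr2 median was -1.99. The log2 difference of summed FPKM was -5.70 for Lce1, -1.39 for Lce3 and -1.73 for Sprr2. For the other 28 genes above 0 at both ages, 56 of 56 values under the pseudocount and scaling alternatives kept their direction. Requiring a value at both ages and the comparison of places by fall were chosen after the data were seen.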
